A study of Mus musculus with 8 samples.

Results

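The genes described here are those that build and run the mitotic spindle and the chromosomes it moves: kinesin motors, centromere and kinetochore proteins, Aurora and polo-like kinases, checkpoint proteins, and the SMC proteins of condensin and cohesin. They were picked by name on the array, as names beginning with Kif and a digit, Cenp, Aurk, Bub1 or Bub3, Plk, Smc, Ncap or Spc2, and 12 names given singly, of which 10 were on the array, such as Incenp, Tpx2 and Top2a. The rule found 74 of 27961 gene names. RNA immunoprecipitation (IP) was used in the study to find the RNA species that DAZL binds. All 8 arrays came from 1 re-derived transgenic mouse embryonic stem (ES) cell line, Dazl-GFP, grown on γ-irradiated feeder fibroblasts with 15% serum and LIF. Every group also had the 2i inhibitors, which are 1 µM PD0325901 against MEK and 3 µM CHIR99021 against GSK3β. The groups were 3 GFP IPs with an antibody against GFP, 2 PABP1 IPs with an antibody against the poly(A)-binding protein PABP1, and 3 inputs of total RNA with no antibody. The IPs were native, that is, without crosslinking. Whether the line makes a GFP fusion of DAZL or GFP as a reporter is not stated in the labels, and an IP with a control antibody was not analysed here.

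In germ cells, DAZL attaches to 3′ untranslated regions of mRNAs and promotes their translation. PABP1 coats poly(A) tails and is found on most mRNAs. At mitosis condensin compacts chromosomes, cohesin holds sister chromatids together until anaphase, the kinetochore built on the centromere ties them to microtubules, and kinesins with the Aurora and polo-like kinases shape the spindle. ES cells divide fast, and mRNAs of this machinery are abundant in them.

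Between 41.5% and 52.6% of the probe spots of an array were well above background. Dazl, the gene that the line is named after, had a log2 difference of 3.81 ± 0.21 (SE) for GFP IP over input (limma adjusted p = 2.16e-05). For PABP1 IP over input it had −1.70 ± 0.23 (limma adjusted p = 0.000629). Pabpc1, which encodes PABP1, passed the test in no comparison. All 9 ES cell markers on the array cleared background on each of the 8 arrays. Of 16 feeder fibroblast markers, 14 were too, and none was at background on every array. The log2 of their summed signal ranged over 6.17 to 6.80 in GFP IPs, 8.51 to 8.60 in PABP1 IPs and 7.87 to 8.27 in inputs. The feeder markers thus moved with the groups, and their part in the results below was not tested. The groups differ by antibody. Fewer cells of a type, less RNA per cell and lower recovery of an RNA cannot be told apart in such bulk samples. Of 6 germ cell markers, Sycp3 was above background on no array, and their summed log2 signal was 4.85 to 5.06, 3.70 to 3.80 and 3.29 to 3.44 in GFP IPs, PABP1 IPs and inputs.

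In the PABP1 IP, most mRNAs of kinesins, cohesin and condensin were lower than in input. Fewer of the kinesin and cohesin genes passed with another background correction, normexp. Centromere protein mRNAs were split, with 6 higher and 3 lower of 14 (42.9% and 21.4%, near the 34.3% and 25.3% of all genes). The condensin subunit Smc2 was the lowest by the probe that stands for it. In the GFP IP they were spread around the array's typical gene, with Kif5c and Cenpq higher and Kif3a, Mki67 and Cenpe lower than input. Values are log2 signals after the 75th percentile of each array was subtracted, and a gene was called at a limma adjusted p under 0.05 over 14743 tested genes. A gene was tested if some group had it well above background throughout. That held for 69 of the 74 genes, and 61 cleared background on all 8 arrays. The kinesins Kif17, Kif21a, Kif27, Kif2b and Kif9 were above background on no array. Separate cultures are not mentioned in the labels, and the p-values therefore reflect only how far these samples scatter, which may be technical.

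For GFP IP over input, 13 of the 69 genes were higher and 31 lower, and 25 did not pass. These are 18.8% and 44.9%, near the 21.4% and 43.3% among all genes tested. The median difference of the 69 was −0.54, beside −0.51 over all genes. For PABP1 IP over input, 11 were higher, among them Kif12, which passed the filter through the PABP1 IP arrays alone, and 37 lower. These are 15.9% and 53.6%, against 34.3% and 25.3% among all genes, with a median of −0.91 beside 0.24. For GFP IP over PABP1 IP, 27 were higher and 14 lower, Kif12 among the latter. These are 39.1% and 20.3%, against 23.9% and 47.4% among all genes, with a median of 0.34 beside −0.67. The last comparison shares its arrays with the other two, so the 3 are not independent.

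The zero point of these differences rests on how arrays were scaled. Scaled to each array's median, GFP IP over input had 17 higher and 15 lower, and the share of calls that were higher was 53.1%, beside 29.5% with the 75th percentile. The median of the 69 was then 0.027. All genes moved too, with 31.4% higher and 20.3% lower, against 24.6% and 21.7% of the 69. GFP IP over PABP1 IP then had 40 higher and 9 lower (81.6% of calls higher, beside 65.9%), and with quantile normalization 38 and 12 (76.0%). Scaled to detected probes, it had 39 higher and 9 lower (81.2%). Among all genes the higher and lower shares were then 29.5% and 33.1% with median scaling, 28.7% and 37.1% with quantile normalization, and 31.3% and 34.1% with detected probes. PABP1 IP over input had 7 higher and 42 lower when scaled to detected probes (10.1% and 60.9%, beside 27.8% and 31.6% of all genes). It had 11 higher and 34 lower with median scaling (15.9% and 49.3%, beside 34.9% and 21.1%).

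Background correction with normexp cut the calls of all genes and of the 69. GFP IP over PABP1 IP then had 6 higher and 7 lower (8.70% and 10.1%), beside 7.60% and 21.1% of all genes. The share of calls of the 69 that were higher was 46.2%, beside 65.9% without normexp. PABP1 IP over input had 4 higher and 13 lower, which are 5.80% and 18.8%, beside 11.2% and 4.40% of all genes. Relative to the median of all genes, the median of the 69 stood at −0.03, −1.15 and 1.01 in the 3 comparisons. It stood at −0.09, −0.46 and 0.32 with normexp, and at 0.22, −0.42 and 0.57 with no filter on dim probes.

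The arrays lay on 2 slides. On slide 1 alone the medians of the 69 were −0.45, −0.86 and 0.52 in the 3 comparisons. Over all genes they were −0.46, 0.28 and −0.66. On slide 2 alone the 69 had −0.41, −0.82 and 0.20, beside −0.42, 0.26 and −0.62. Each slide held a single array of some groups, so its calls are not counted here. With the slide as a block, 16 were higher and 35 lower for GFP IP over input. The counts were 16 and 43 for PABP1 IP over input, and 32 and 20 for GFP IP over PABP1 IP. In that fit 7, 11 and 11 further differences of the 69 genes passed in the 3 comparisons and none was lost. The shares of all genes called were then larger too, at 24.5% higher and 50.9% lower, 43.2% and 30.6%, and 27.0% and 55.8%. The count higher in PABP1 IP rested partly on input 2, without which it was 7.

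**Figure D1:**
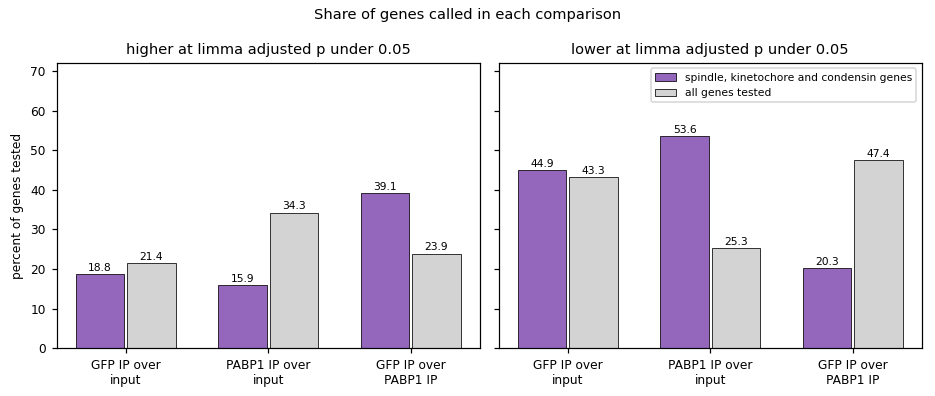
Percent of tested genes called higher (left) and lower (right) in each comparison at a limma adjusted p under 0.05, for the 69 spindle, kinetochore and condensin genes (purple) and all 14743 genes tested (grey). In PABP1 IP over input 53.6% of the purple set was lower against 25.3% of all genes, while in GFP IP over input the purple and grey bars were near each other.

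**Figure D2:**
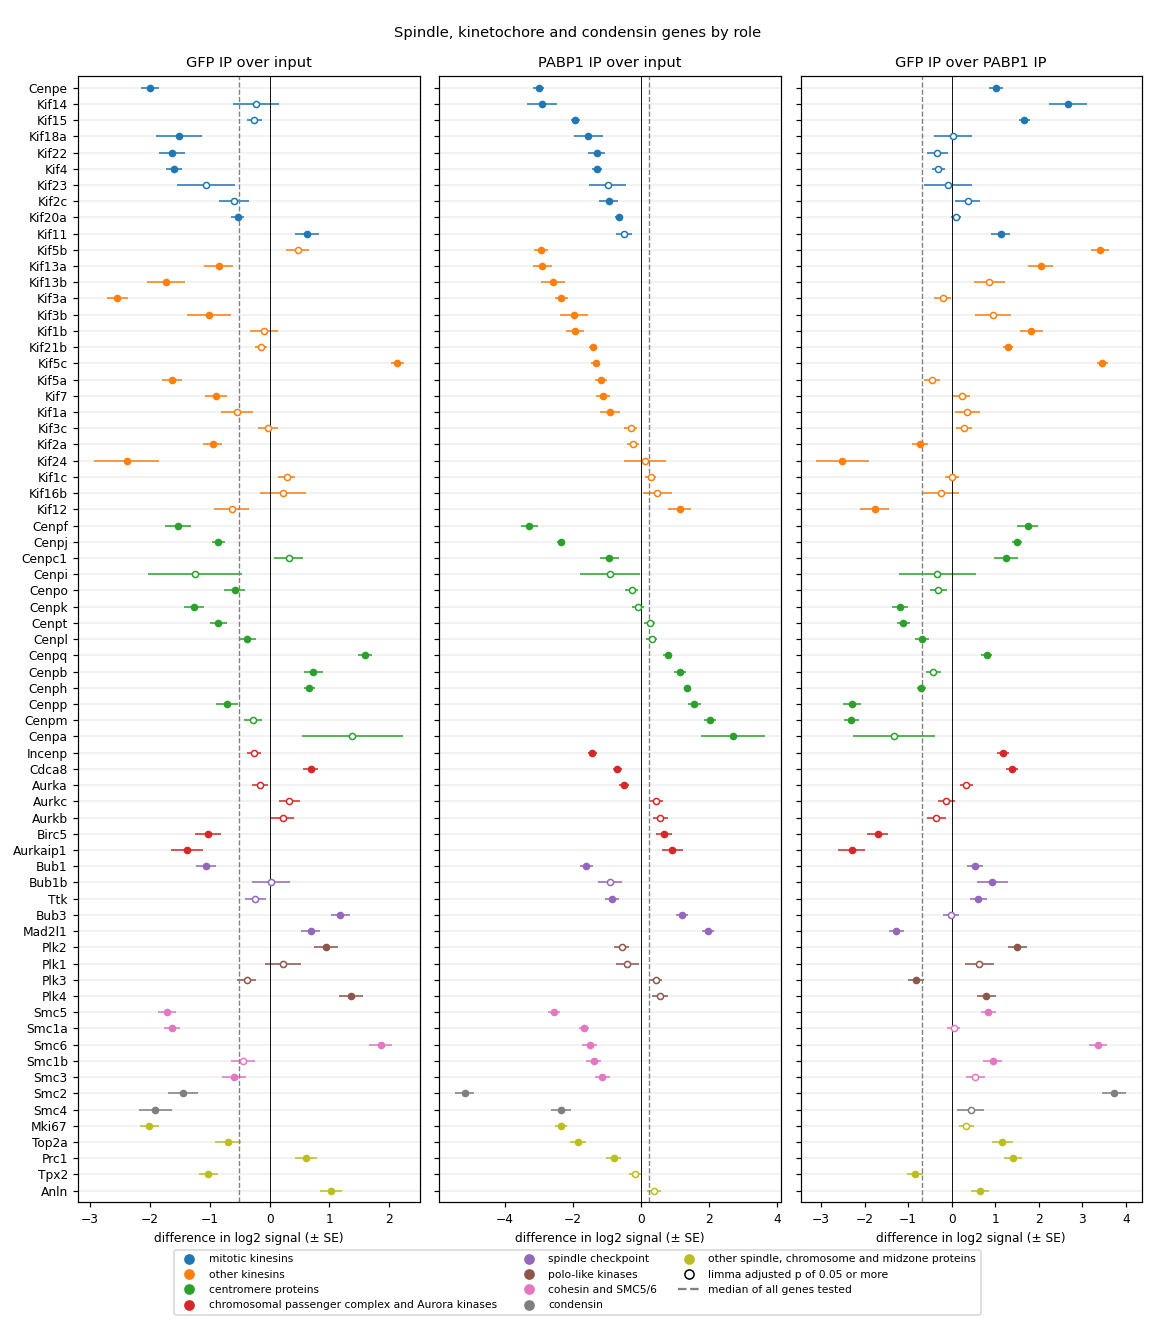
Fitted log2 difference (horizontal axis, ± SE) of each of the 69 tested genes (rows, ordered within each role by PABP1 IP over input) in the 3 comparisons. Filled points passed the limma test, the dashed line is the median of all genes tested, and nearly every kinesin, cohesin and condensin gene lies left of it in the middle panel.

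Condensin was represented by its SMC pair, Smc2 and Smc4, which form the ATPase core of the complex. Smc2 had log2 signals of 0.46, 1.32 and 1.16 in GFP IPs, −2.86 and −2.64 in PABP1 IPs, and 2.17, 2.66 and 2.48 in inputs. The 3 groups did not overlap, with the PABP1 IPs lowest and the inputs highest. By the probe that stands for Smc2, the difference was −5.18 ± 0.28 for PABP1 IP over input, or 36.3-fold lower (limma adjusted p = 1.94e-05), rank 35 from the lowest of 14743 genes. It was −1.45 ± 0.25 for GFP IP over input (adjusted p = 0.00184) and 3.73 ± 0.28 for GFP IP over PABP1 IP (adjusted p = 2.88e-05). A second Smc2 probe gave 2.05, −0.62 and 2.66 in the same order, the middle value not past the test, so the size in PABP1 IP and the direction in GFP IP depend on the probe. Smc4 had 1.43, 1.19 and 1.60 in GFP IPs, 0.67 and 1.27 in PABP1 IPs, and 2.95, 3.15 and 3.85 in inputs. Both IPs lay below every input, while the IPs overlapped each other. Its differences were −1.91 ± 0.27 for GFP IP over input and −2.35 ± 0.31 for PABP1 IP over input, and its difference between the IPs, 0.44 ± 0.31, did not pass (adjusted p = 0.227).

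The array names carried older symbols for other condensin subunits, which the name rule does not reach. Ncapd2, a HEAT-repeat subunit of condensin I, was lower in both IPs, by −1.19 ± 0.12 in GFP IP and −1.10 ± 0.14 in PABP1 IP. Ncapd3, its counterpart in condensin II, had −1.75 ± 0.33 and −1.04 ± 0.37, both past the test. Ncapg2 of condensin II was lower in PABP1 IP only by the test, at −1.99 ± 0.18, against −0.36 ± 0.16 in GFP IP (adjusted p = 0.0915), and its difference between the IPs was 1.63 ± 0.18 (adjusted p = 0.000177). Ncaph, the kleisin that closes the condensin I ring, passed in no comparison.

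All 5 cohesin and SMC5/6 genes were lower in PABP1 IP than in input, with a median of −1.51, while 25.3% of all genes were lower. The count of 5 was the same under median scaling, quantile normalization and with the slide as a block, but was 1 with normexp background correction. Of all genes 21.1%, 29.1%, 30.6% and 4.40% were lower in these settings, in that order. In GFP IP over input 1 was higher and 3 were lower (20% and 60%, beside 21.4% and 43.3% of all genes). Smc1a, a core subunit of mitotic cohesin, had 4.16, 4.28 and 4.18 in GFP IPs, 4.19 and 4.14 in PABP1 IPs, and 5.95, 5.96 and 5.60 in inputs. The IPs were level with each other and well below the inputs, by −1.63 ± 0.13 and −1.68 ± 0.15. Smc3, its partner, had −0.60 ± 0.20 in GFP IP and −1.14 ± 0.22 in PABP1 IP, and the GFP IP call ended when input 1, input 2, GFP IP 1 or GFP IP 3 was left out. Smc1b, a meiotic cohesin subunit, was lower in PABP1 IP alone by the test (−1.39 ± 0.22), with −0.45 ± 0.20 in GFP IP (adjusted p = 0.0799) and 0.94 ± 0.22 between the IPs.

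Smc6 and Smc5 form a complex that acts in DNA repair and chromosome disjunction. Smc6 had 1.54, 2.02 and 2.06 in GFP IPs, −1.71 and −1.26 in PABP1 IPs, and −0.05, −0.02 and 0.12 in inputs. GFP IPs were above and PABP1 IPs below every input, with differences of 1.85 ± 0.19 and −1.51 ± 0.21, and of 3.36 ± 0.21 between the IPs (limma adjusted p = 0.00017, 0.000722 and 1.56e-05). A second Smc6 probe ran the other way, at −0.47, 0.80 and −1.27, each past the test, so the direction for Smc6 depends on the probe. Smc5 was lower in both IPs, by −1.71 ± 0.15 in GFP IP and −2.55 ± 0.17 in PABP1 IP.

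**Figure D3:**
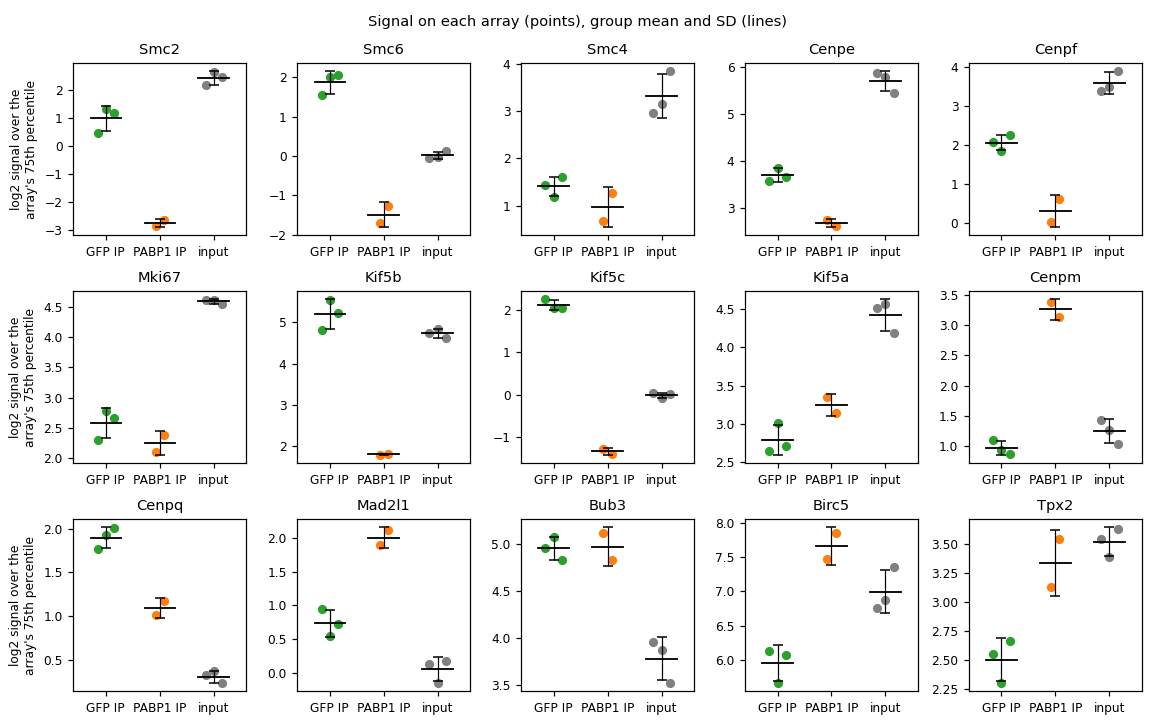
Log2 signal of 15 genes on each array (points), with the group mean and SD (lines), for GFP IP, PABP1 IP and input from left to right; each panel has its own vertical axis. In Smc2, Kif5b and Kif5c the PABP1 IP arrays sit below all others, in Cenpm and Mad2l1 they sit above all others, and in Mki67 both IPs sit below the inputs.

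Of 10 mitotic kinesins, 8 were lower in PABP1 IP and none was higher, beside 25.3% and 34.3% of all genes, with a median of −1.30. With normexp background correction 3 were lower there, when 4.40% of all genes were. In GFP IP over input 5 were lower and 1 higher (50% and 10%, beside 43.3% and 21.4% of all genes). Between the IPs 4 were higher in GFP IP and none lower, beside 23.9% and 47.4% of all genes. With the slide as a block, 8 were lower in GFP IP, all 10 were lower in PABP1 IP, and between the IPs 5 were higher and 1 lower. Of all genes 50.9% and 30.6% were then lower over input, and 27.0% were higher and 55.8% lower between the IPs. Cenpe, the kinetochore motor that carries chromosomes to the metaphase plate, had 3.59, 3.87 and 3.67 in GFP IPs, 2.76 and 2.63 in PABP1 IPs, and 5.87, 5.79 and 5.46 in inputs. The groups were fully apart, with differences of −2.00 ± 0.15 in GFP IP, −3.01 ± 0.17 in PABP1 IP and 1.01 ± 0.17 between the IPs. Kif14, which acts at the midbody, had 0.13, −0.61 and −0.10 in GFP IPs, −3.47 and −2.25 in PABP1 IPs, and −0.31, −0.20 and 0.61 in inputs. GFP IPs overlapped the inputs and PABP1 IPs lay below all of them, by −2.90 ± 0.44 from input and with 2.67 ± 0.44 for GFP IP over PABP1 IP (adjusted p = 0.00104 and 0.0012).

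Kif15, which helps to keep the spindle bipolar, had −1.93 ± 0.14 in PABP1 IP and 1.67 ± 0.14 between the IPs, while its GFP IP difference of −0.26 ± 0.12 did not pass. Kif11, the main motor that pushes spindle poles apart, was the 1 mitotic kinesin higher in GFP IP, at 0.62 ± 0.20 (adjusted p = 0.0303). That call ended when input 1, input 2, GFP IP 1 or GFP IP 3 was left out, and the mean of the Kif11 probes was −0.26. The chromokinesins Kif4 and Kif22, which bind chromosome arms, differed from input by −1.60 ± 0.13 and −1.63 ± 0.22 in GFP IP, and by −1.29 ± 0.15 and −1.31 ± 0.24 in PABP1 IP. Neither gene passed between the IPs. A second Kif4 probe gave −1.51 and −1.37.

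Kif20a, which takes the chromosomal passenger complex to the midzone, had −0.54 ± 0.11 in GFP IP and −0.64 ± 0.12 in PABP1 IP. With median scaling its GFP IP value was 0.027. Kif18a, which limits microtubule length at kinetochores, had −1.52 ± 0.38 and −1.55 ± 0.43, but 1 of its 2 PABP1 IP arrays was not well above background, and without PABP1 IP 1 the PABP1 IP value was −0.79 (adjusted p = 0.0748). Kif2c, a microtubule depolymerase at centromeres, passed in PABP1 IP alone (−0.95 ± 0.28), a call that ended without input 1, input 2 or PABP1 IP 2. Kif23, part of centralspindlin, passed in no comparison. With the slide as a block its difference was −1.45 for GFP IP over input and −1.17 for PABP1 IP over input, both past the test.

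Kinesins with other jobs, chiefly transport along microtubules, made up 22 of the 74 genes, and 17 of them were tested. In PABP1 IP 11 were lower and 1 higher (64.7% and 5.88%, beside 25.3% and 34.3% of all genes), with a median of −1.18. The 1 higher was Kif12, which passed the filter through the PABP1 IP arrays alone and so is no support for the count. With normexp background correction 3 were lower in PABP1 IP and none was higher, beside 4.40% and 11.2% of all genes. In GFP IP 8 were lower and 1 higher, and the lower share of 47.1% is near the 43.3% of all genes. Between the IPs 5 were higher in GFP IP and 3 lower, Kif12 among the latter (29.4% and 17.6%, beside 23.9% and 47.4% of all genes). With median scaling the GFP IP over input counts were 4 lower and 3 higher, and those between the IPs 11 higher and 2 lower. Of all genes 20.3% were then lower and 31.4% higher in GFP IP over input, and 29.5% higher and 33.1% lower between the IPs.

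The kinesin-1 heavy chains Kif5a, Kif5b and Kif5c, carry vesicles and mitochondria. Kif5b had 4.82, 5.55 and 5.23 in GFP IPs, 1.79 and 1.81 in PABP1 IPs, and 4.74, 4.83 and 4.63 in inputs. GFP IPs overlapped the inputs and PABP1 IPs were far below, with −2.93 ± 0.21 for PABP1 IP over input and 3.40 ± 0.21 for GFP IP over PABP1 IP (limma adjusted p = 4.43e-05 and 1.53e-05). A second Kif5b probe gave −3.08 and 3.86. Kif5c had 2.27, 2.06 and 2.04 in GFP IPs, −1.27 and −1.40 in PABP1 IPs, and 0.04, −0.08 and 0.01 in inputs. It was higher in GFP IP by 2.14 ± 0.11 and lower in PABP1 IP by −1.33 ± 0.13, and GFP IP was above PABP1 IP by 3.46 ± 0.13. Kif5a had 2.64, 3.02 and 2.71 in GFP IPs, 3.35 and 3.14 in PABP1 IPs, and 4.52, 4.57 and 4.19 in inputs. Both IPs were below every input, by −1.63 ± 0.16 and −1.18 ± 0.18, and the difference between them did not pass.

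Kif3a, a kinesin-2 motor of intraflagellar transport, was the lowest of the 69 genes in GFP IP over input. It had −1.73, −1.37 and −1.80 in GFP IPs, −1.40 and −1.46 in PABP1 IPs, and 1.06, 1.05 and 0.61 in inputs. The IPs lay together, more than 1 log2 unit below the inputs, with differences of −2.54 ± 0.18 and −2.34 ± 0.20. Its partner Kif3b had −1.02 ± 0.37 in GFP IP, lost when either of input 1 and 2 or of GFP IP 1 and 3 was left out, and −1.97 ± 0.41 in PABP1 IP. Kif1b, a mitochondrial and vesicle motor, was lower in PABP1 IP (−1.93 ± 0.27) and had −0.10 ± 0.24 in GFP IP, with 1.83 ± 0.27 between the IPs. Kif21b, a neuronal kinesin, had −1.42 ± 0.11 in PABP1 IP and 1.28 ± 0.11 between the IPs.

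Kif13a and Kif13b, vesicle motors, were each at background on 1 PABP1 IP array. They were lower in PABP1 IP by −2.90 ± 0.28 and −2.59 ± 0.36, and in GFP IP by −0.85 ± 0.25 and −1.73 ± 0.32, the first lost without input 2. For each IP over input, Kif13a also had a probe that was called higher, so its direction depends on the probe. Kif7, a regulator of Hedgehog signalling in the cilium, had −0.90 ± 0.18 in GFP IP and −1.12 ± 0.20 in PABP1 IP. Kif24, a centriolar kinesin, was lower in GFP IP (−2.39 ± 0.54) and below PABP1 IP by −2.51 ± 0.61, a call lost without PABP1 IP 1. Kif2a, a depolymerase that also works at spindle poles, was lower in GFP IP (−0.95 ± 0.16) and lower than in PABP1 IP (−0.73 ± 0.17). Kif12 was above background in PABP1 IP alone, and its GFP IP level was at least 1.99-fold lower than in PABP1 IP. Against input the bound was at least 1.17-fold higher in PABP1 IP, but that call ended without input 2 or PABP1 IP 1, and normexp turned its sign (−0.19). Kif1a was lower in PABP1 IP (−0.91 ± 0.29), a call that each input and each PABP1 IP array could end, and Kif3c and Kif16b passed in no comparison. Kif1c did not pass in a comparison either. With the slide as a block it passed against input, and 16 of 19 alternative fits left it uncalled for GFP IP over input.

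Of 14 centromere protein genes, 6 were higher and 3 lower in PABP1 IP, 3 were higher and 7 lower in GFP IP, and 4 were higher and 6 lower in GFP IP than in PABP1 IP. The shares against input, 42.9% and 21.4% in PABP1 IP and 21.4% and 50% in GFP IP, are near those of all genes given above. Between the IPs the shares of 28.6% and 42.9% are near the 23.9% and 47.4% of all genes. With the slide as a block, 10 of the 14 were lower in GFP IP than in PABP1 IP, when 55.8% of all genes were. The median of the 14 was 0.28 in PABP1 IP, −0.48 in GFP IP and −0.55 between the IPs. With median scaling the GFP IP median was 0.09.

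Most of these proteins belong to the constitutive centromere-associated network, which links centromeric chromatin to the outer kinetochore. Cenpm had 1.09, 0.93 and 0.86 in GFP IPs, 3.39 and 3.14 in PABP1 IPs, and 1.44, 1.26 and 1.03 in inputs. PABP1 IPs stood well above both other groups, which overlapped, with 2.02 ± 0.17 for PABP1 IP over input and −2.31 ± 0.17 for GFP IP over PABP1 IP (limma adjusted p = 6.81e-05 and 2.48e-05). Cenpp had 2.04, 1.59 and 2.03 in GFP IPs, 4.01 and 4.34 in PABP1 IPs, and 2.64, 2.39 and 2.78 in inputs. Its 3 groups were apart, at −0.72 ± 0.18 for GFP IP over input, 1.57 ± 0.20 for PABP1 IP over input and −2.29 ± 0.20 for GFP IP over PABP1 IP. Cenpq had 1.76, 1.93 and 2.00 in GFP IPs, 1.01 and 1.17 in PABP1 IPs, and 0.32, 0.36 and 0.23 in inputs. It was highest in GFP IP, with 1.59 ± 0.12 over input, 0.79 ± 0.13 for PABP1 IP over input and 0.81 ± 0.13 for GFP IP over PABP1 IP.

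Cenph was higher in both IPs, by 0.66 ± 0.10 in GFP IP and 1.36 ± 0.11 in PABP1 IP. The probe that stands for it was lower in GFP IP than in PABP1 IP by −0.70 ± 0.11. The mean of its probes, one of which was too dim to be tested, turned both signs, to −0.97 for GFP IP over input and −0.58 for PABP1 IP over input. Cenpk and Cenpt were lower in GFP IP, by −1.27 ± 0.17 and −0.86 ± 0.14, did not pass in PABP1 IP, and were lower in GFP IP than in PABP1 IP by −1.18 ± 0.19 and −1.11 ± 0.16. Cenpl and Cenpo had −0.37 ± 0.14 and −0.58 ± 0.18 in GFP IP; the first call ended in 7 of 8 fits that left out an array, and the second was lost in the fits that left out input 1 or 2, or GFP IP 1 or 3.

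Cenpb, which binds a motif in centromeric DNA, was higher in both IPs, by 0.73 ± 0.16 and 1.15 ± 0.17. Cenpa, the histone H3 variant that marks the centromere, had 0.47, −1.41 and −0.27 in GFP IPs, 0.24 and 1.61 in PABP1 IPs, and −3.23, −1.94 and −0.17 in inputs. Its arrays scattered widely within each group, and the PABP1 IP difference of 2.71 ± 0.94 (adjusted p = 0.0405) ended without input 1, input 2, GFP IP 3 or either PABP1 IP. Cenpi scattered too and passed in no comparison, but with the slide as a block it was −1.86 in GFP IP (adjusted p = 0.000323).

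Cenpf, a large outer kinetochore protein, had 2.08, 1.87 and 2.26 in GFP IPs, 0.03 and 0.62 in PABP1 IPs, and 3.40, 3.49 and 3.91 in inputs. Its groups were fully apart, at −1.53 ± 0.21, −3.28 ± 0.24 and 1.74 ± 0.24 in the 3 comparisons (adjusted p = 0.000705, 4.58e-05 and 0.000497). Cenpj, which carries the name but builds centrioles, had −0.86 ± 0.11, −2.35 ± 0.12 and 1.49 ± 0.12. Cenpc1, which anchors the network to centromeric nucleosomes, had −0.93 ± 0.28 in PABP1 IP, lost without PABP1 IP 1, and 1.25 ± 0.28 between the IPs.

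Older array names held 4 more centromere proteins and the whole Ndc80 complex, which grips microtubules at the outer kinetochore. Cenpx, a small histone-fold protein, had 2.50, 2.62 and 2.39 in GFP IPs, 5.73 and 5.38 in PABP1 IPs, and 3.69, 3.47 and 3.06 in inputs. GFP IPs were below and PABP1 IPs above every input, by −0.90 ± 0.19 and 2.15 ± 0.21, and the IPs differed by −3.05 ± 0.21. Its partner Cenps had 1.77 ± 0.52 in PABP1 IP and −2.48 ± 0.52 between the IPs. Cenpn and Cenpu had 1.22 ± 0.15 and 0.64 ± 0.12 in PABP1 IP, and −1.40 ± 0.15 and −1.26 ± 0.12 between the IPs.

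Of the Ndc80 complex, Spc25 had 3.76, 3.24 and 3.49 in GFP IPs, 2.33 and 2.57 in PABP1 IPs, and 0.41, 0.29 and 0.74 in inputs. Both IPs lay far above the inputs, by 3.02 ± 0.19 (8.10-fold) and 1.97 ± 0.21, and GFP IPs lay above PABP1 IPs by 1.05 ± 0.21. Its partner Spc24 was lower in GFP IP (−0.93 ± 0.17), higher in PABP1 IP (0.84 ± 0.19) and apart by −1.76 ± 0.19 between the IPs. Nuf2 was lower in both IPs, by −0.60 ± 0.11 and −0.53 ± 0.12. Ndc80 itself, above background on 1 GFP IP, both PABP1 IP and 2 input arrays, passed the filter through the PABP1 IP arrays alone. It had −1.03 ± 0.18 in GFP IP and −0.13 ± 0.20 in PABP1 IP. All 14 genes under older names gave 1 higher and 8 lower in GFP IP (7.14% and 57.1%, beside 21.4% and 43.3% of all genes). They gave 6 and 4 in PABP1 IP (42.9% and 28.6%, beside 34.3% and 25.3%). Between the IPs they gave 2 and 7 (14.3% and 50%, beside 23.9% and 47.4%). Ndc80, at −0.91 between the IPs, is among the lower and is no support for that count, given how it passed the filter. Among them Kif18b passed in no comparison, and Plk5 was lower in GFP IP (−0.76 ± 0.12).

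The chromosomal passenger complex, which corrects faulty attachments and then drives cytokinesis, was split by subunit. Cdca8 (borealin) had 7.71, 7.48 and 7.49 in GFP IPs, 6.21 and 6.14 in PABP1 IPs, and 7.01, 6.84 and 6.77 in inputs. GFP IPs were above and PABP1 IPs below every input, by 0.69 ± 0.12 and −0.70 ± 0.14. Birc5 (survivin) had 6.13, 5.67 and 6.08 in GFP IPs, 7.47 and 7.85 in PABP1 IPs, and 6.76, 6.88 and 7.35 in inputs. The order was turned round, with −1.03 ± 0.22 for GFP IP over input, 0.67 ± 0.24 for PABP1 IP over input and −1.70 ± 0.24 for GFP IP over PABP1 IP; the PABP1 IP call ended in 6 of 8 fits that left out an array, and quantile normalization gave −0.10. Incenp, the scaffold, was lower in PABP1 IP (−1.44 ± 0.13), did not pass in GFP IP (−0.26 ± 0.12), and differed by 1.18 ± 0.13 between the IPs.

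Of the Aurora kinases, Aurkb, the kinase of the passenger complex, passed in no comparison. Aurkc, its relative in germ cells, did not pass either, but with the slide as a block it did against input, at 0.42 in GFP IP and 0.49 in PABP1 IP. Aurka, the spindle-pole kinase, passed in PABP1 IP alone, at −0.50 ± 0.15, and lost this call without input 1, input 2 or either PABP1 IP. Aurkaip1, an Aurora A interacting protein that is also a mitochondrial ribosome component, had −1.38 ± 0.27 in GFP IP, 0.92 ± 0.31 in PABP1 IP and −2.30 ± 0.31 between the IPs. Without PABP1 IP 1 its PABP1 IP value was 0.55 (adjusted p = 0.226), and leaving out input 2, input 3 or GFP IP 1 ended that call too.

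Of 5 spindle checkpoint genes, 2 were higher and 1 lower in GFP IP (40% and 20%, beside 21.4% and 43.3% of all genes). In PABP1 IP 2 were higher and 2 lower (40% each, beside 34.3% and 25.3% of all genes). Between the IPs 3 were higher in GFP IP and 1 lower (60% and 20%, beside 23.9% and 47.4%). Mad2l1, whose protein blocks the anaphase-promoting complex, had 0.94, 0.54 and 0.73 in GFP IPs, 1.90 and 2.12 in PABP1 IPs, and 0.14, −0.16 and 0.17 in inputs. Its groups did not overlap, at 0.69 ± 0.16, 1.96 ± 0.18 and −1.27 ± 0.18 in the 3 comparisons, and a second probe gave 0.99, 2.18 and −1.19. Bub3, which brings the Bub kinases to kinetochores, had 4.96, 5.08 and 4.83 in GFP IPs, 5.12 and 4.83 in PABP1 IPs, and 3.96, 3.87 and 3.52 in inputs. The IPs overlapped and lay above the inputs, 2.26-fold in GFP IP and 2.29-fold in PABP1 IP, both past the test, while another Bub3 probe was 1.78 higher in GFP IP than in PABP1 IP.

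The checkpoint kinases differed from these 2. Bub1 was lower in both IPs, by −1.06 ± 0.16 and −1.60 ± 0.18, and Ttk was lower in PABP1 IP (−0.85 ± 0.19), where 1 of 2 arrays was well above background. Bub1b passed in neither comparison with input, though its PABP1 IP value of −0.91 was −1.02 with the slide as a block (adjusted p = 0.000984). It also passed there with quantile normalization and when scaled to detected probes. Their differences between the IPs, 0.54 ± 0.18 for Bub1, 0.94 ± 0.35 for Bub1b and 0.61 ± 0.19 for Ttk, each ended when PABP1 IP 1, GFP IP 3 or another array was left out. Without PABP1 IP 1 the value for Bub1 was 0.34 (adjusted p = 0.221).

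None of the 4 polo-like kinases passed in PABP1 IP over input, where 34.3% of all genes were higher and 25.3% lower. In GFP IP over input 2 were higher and none was lower (50% and 0%, beside 21.4% and 43.3% of all genes). With the slide as a block all 4 passed in PABP1 IP over input, Plk3 and Plk4 higher (0.46 and 0.51) and Plk1 and Plk2 lower (−0.52 and −0.60). In that fit 43.2% of all genes were higher and 30.6% lower. Plk4, the kinase of centriole duplication, had −1.02, −1.18 and −0.78 in GFP IPs, −2.02 and −1.56 in PABP1 IPs, and −2.16, −2.65 and −2.23 in inputs. GFP IPs were above all others, by 1.35 ± 0.20 over input and 0.80 ± 0.22 over PABP1 IP, the second lost without PABP1 IP 1. Plk2, a stress-responsive kinase, was higher in GFP IP by 0.94 ± 0.19 and stood 2.84-fold above PABP1 IP (adjusted p = 0.000642). Plk3 was lower in GFP IP than in PABP1 IP (−0.82 ± 0.18). Plk1, the main mitotic polo kinase, did not pass between the IPs. It did with the slide as a block (0.52), with quantile normalization and when scaled to detected probes.

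Mki67 encodes Ki-67, the coat of mitotic chromosomes. It had 2.30, 2.78 and 2.66 in GFP IPs, 2.10 and 2.38 in PABP1 IPs, and 4.62, 4.62 and 4.54 in inputs. The IPs overlapped and lay below the inputs, by −2.01 ± 0.16 and −2.35 ± 0.17. Top2a, the topoisomerase that untangles sister chromatids, had −1.85 ± 0.25 in PABP1 IP and 1.16 ± 0.25 between the IPs, with −0.69 ± 0.22 in GFP IP, a call lost without input 3, GFP IP 1 or GFP IP 2. Tpx2, which activates Aurora A on the spindle, was lower in GFP IP (−1.02 ± 0.16) and not called in PABP1 IP (−0.19 ± 0.18), a difference between the IPs of −0.84 ± 0.18.

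The midzone bundler Prc1 and the cytokinetic ring protein Anln were higher in GFP IP, by 0.61 ± 0.18 and 1.02 ± 0.18. Prc1 was lower in PABP1 IP (−0.81 ± 0.21) and 1.42 ± 0.21 apart between the IPs; its call over input ended without GFP IP 2 in GFP IP, and without PABP1 IP 2 in PABP1 IP. Anln had 0.65 ± 0.20 between the IPs, which was 0.36 without PABP1 IP 1 (adjusted p = 0.177) and also ended without GFP IP 2 or GFP IP 3. A second Anln probe gave −1.52 in GFP IP and −2.72 in PABP1 IP, both past the test.

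Several genes had more than one tested probe, and these did not always give one answer. Of 27 such genes, 7 had probes called in opposite directions for GFP IP over input, namely Anln, Cenpo, Kif13a, Kif3b, Smc2, Smc5 and Smc6. For PABP1 IP over input there were 2, Kif13a and Smc6, and between the IPs 1, Smc6. Among all 4563 tested genes with several probes, 9.69%, 8.59% and 10.8% had such opposite calls. Smc2 had the widest range, with probes at −1.45, 2.05 and −1.80 for GFP IP over input and at −5.18, −0.62 and −5.88 for PABP1 IP over input. All 3 Smc2 probes were higher in GFP IP than in PABP1 IP, by 3.73, 2.66 and 4.07. The second Smc5 probe gave 1.06 in GFP IP and −2.04 in PABP1 IP, so its PABP1 IP direction was shared and its GFP IP direction was not. The second probes of Kif21b, Cenpl, Aurkc and Mki67 gave 1.04, 0.51, 1.11 and −2.51 for GFP IP over input, each past the test. Kif5a, Kif24, Top2a and Kif3b had second probes at −0.47, −1.16, −1.22 and 0.60, the first of which did not pass. Where the probes lie in their transcripts was not analysed here.

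**Figure D4:**
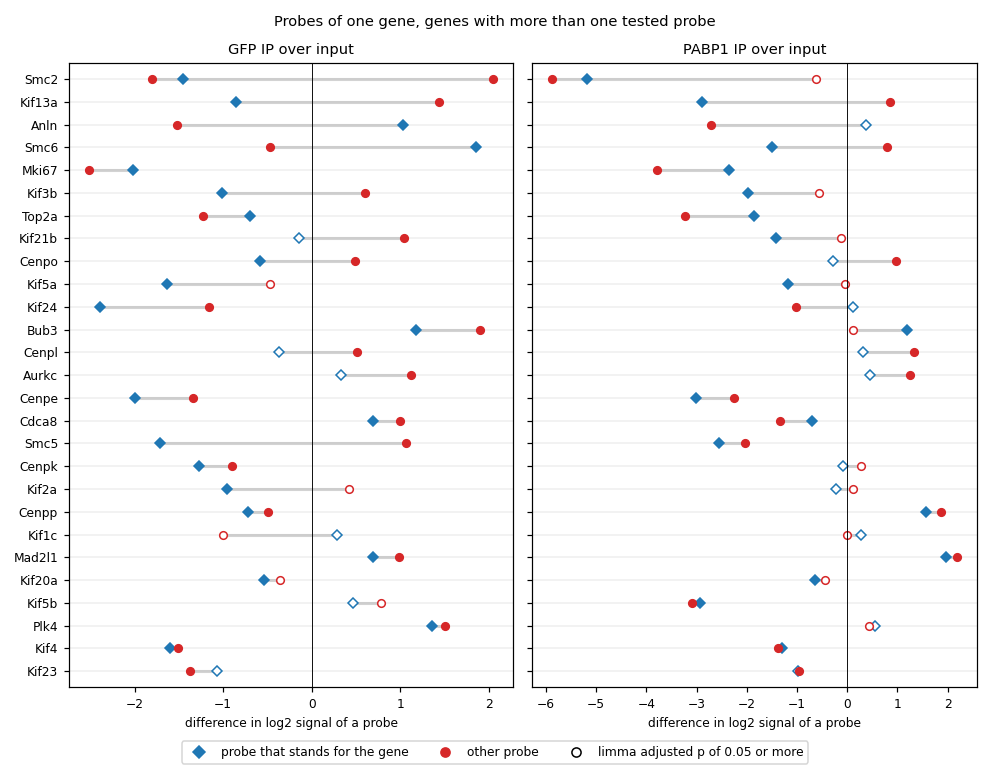
Log2 difference of each tested probe (points) of the 27 genes with more than one, for GFP IP over input (left) and PABP1 IP over input (right); blue diamonds are the probes that stand for their gene, and open points did not pass the limma test. Probes of Smc2, Kif13a, Anln and Smc6 at the top lie far apart, and those of Kif4, Kif5b and Mad2l1 lie close together.

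Calls that held in every alternative fit that tested the gene numbered 10 of 44 for GFP IP over input, 16 of 48 for PABP1 IP over input, and, for GFP IP over PABP1 IP, 10 of 41. For GFP IP over input they were Kif5c, which was higher, and Cenpe, Cenpf, Kif22, Kif3a, Kif4, Kif5a, Mki67, Smc1a and Smc4, which were lower. For PABP1 IP over input they were Cenpm, Cenpp and Mad2l1, which were higher, and Cenpe, Cenpf, Cenpj, Kif14, Kif15, Kif1b, Kif3a, Kif5b, Mki67, Smc2, Smc4, Smc5 and Top2a, which were lower. Between the IPs they were Kif14, Kif5b, Kif5c, Smc2 and Smc6, higher in GFP IP, and Aurkaip1, Cenpm, Cenpp, Cenpt and Mad2l1, lower. These fits did not use another probe by itself, and a second Smc6 probe was called the other way between the IPs. Leaving out a single array ended 8, 10 and 6 calls in the 3 comparisons.

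Beyond these genes, a list of 79 other chromosome segregation genes on the array, 75 of them tested, had 14 higher and 37 lower in GFP IP, 19 higher and 30 lower in PABP1 IP, and 21 higher and 29 lower in GFP IP than in PABP1 IP. Its medians were −0.45, −0.48 and −0.21, beside −0.51, 0.24 and −0.67 over all genes. The higher and lower shares were 18.7% and 49.3% in GFP IP, near the 21.4% and 43.3% of all genes. In PABP1 IP the shares were 25.3% and 40.0%, beside 34.3% and 25.3% of all genes. Between the IPs they were 28% and 38.7%, beside 23.9% and 47.4%. In GFP IP over input the highest were Esco2, an acetyltransferase that establishes cohesion (2.85 ± 0.47), Mis18a, which helps to load Cenpa (2.79 ± 0.23), and Rad21, the cohesin kleisin (2.46 ± 0.10). The lowest were the augmin subunits Haus1 (−2.02 ± 0.14) and Haus3 (−1.94 ± 0.19) and the kinetochore protein Zwilch (−1.82 ± 0.16).

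In PABP1 IP over input Casc5, the kinetochore scaffold that recruits the Bub kinases, was the lowest of that list (−4.58 ± 0.45), followed by Kifap3, the kinesin-2 adaptor (−2.35 ± 0.12), and Nipbl, the cohesin loader (−2.27 ± 0.15). Mis18a (2.52 ± 0.25), Haus2 (2.41 ± 0.38) and the anaphase-promoting complex subunit Cdc26 (2.26 ± 0.13) were the highest. Between the IPs, Esco2 (3.24 ± 0.52), Casc5 (3.05 ± 0.45) and the spindle protein Ckap2 (2.79 ± 0.18) were the highest in GFP IP, and Anapc13 (−3.12 ± 0.24), Itgb3bp of the centromere network (−3.00 ± 0.11) and Haus2 (−2.83 ± 0.38) the lowest. Of 15 cohesin regulators and subunits in the list, 1 was higher and 9 lower in PABP1 IP (6.67% and 60%, beside 34.3% and 25.3% of all genes). In GFP IP over PABP1 IP 8 were higher and 2 lower (53.3% and 13.3%, beside 23.9% and 47.4%). Of 16 genes of the anaphase-promoting complex and its partners, 6 were higher and 5 lower in PABP1 IP. These are 37.5% and 31.25%, near the shares of all genes. In GFP IP over PABP1 IP 2 were higher and 11 lower (12.5% and 68.75%, beside 23.9% and 47.4% of all genes).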

How the data were processed

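The deposited scanner output holds intensity values from 1-colour Agilent arrays (design 014868). Per the file headers, it was made with Feature Extraction 9.1.3.1 under protocol GE1-v5_95_Feb07, with spatial and multiplicative detrending and surrogate values for dim spots switched on. Flag columns (saturated, outlier, well above background) are other values that the authors deposited with each spot. Group mean intensities of the whole series were also deposited by the authors, with a scaling that the sources used here do not state.

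Processed intensities were converted to log2 and the 75th percentile of 43379 probe spots was subtracted on each array. Replicate spots were averaged and 32 probes dropped for an outlier spot, leaving 41142. Each gene was represented by its brightest probe. Of 27949 genes, the 14743 that some group showed well above background throughout were fitted by limma (version 3.58.1, R version 4.3.3) over 8 arrays with 3 contrasts. Tests were two-sided and moderated (5 residual and 2.1 prior degrees of freedom), with Benjamini-Hochberg adjustment over all fitted genes. The fit was tested on simulated data for GFP IP over input. It called 46% of 100 genes with a true log2 difference of 1 and 73% of 100 with 2. It also called 4 unchanged genes, so a gene that did not pass may still differ. matplotlib 3.10.9 drew the figures. No counts underlie the values, and the number of arrays limits the precision.

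The genes, role groups, markers and the list of other segregation genes were chosen with earlier results of these data known. Named genes were the 10 largest called differences each way, all Ndc80, passenger, checkpoint, condensin, SMC, Aurora and polo-like genes, Tpx2, Mki67, Top2a, Prc1 and Anln, genes whose probes differed in sign or by over 1 log2 unit, and the 3 largest each way of the other list. Other tested genes are named to account for all. Accessions tied 14 older array names to symbols through RefSeq's genes for GRCm38.p6. Alternatives were other scalings, normexp background correction, other filters, the mean of probes, slide, replicate number and each array left out. Sequences of the mRNAs and probes were not used here.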

Additional observations from a re-analysis of the deposited data

How the results depend on the processing

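The arrays' small number limits the precision, and the 2 PABP1 IP arrays most. Leaving one of them out leaves that group with a single array. Using slide 1 alone does so for PABP1 IP and GFP IP, and slide 2 alone for PABP1 IP and input. A single array is assumed to vary like the others. Signals near background cannot be ordered. In medians over the 69 genes and counts of higher and lower genes, settings that moved a value by more than the spread between arrays (0.112, SD) or a count by over 1.5 times are given here, and the cause was not tested except where stated.

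With median scaling, GFP IP over input had 15 lower and a median of 0.027, and GFP IP over PABP1 IP had 9 lower and 0.80. Scaling to detected probes gave medians of −0.35, −1.16 and 0.77, with 7 higher in PABP1 IP and 9 lower between the IPs. Quantile normalization gave medians of −0.26 for GFP IP over input and 0.65 between the IPs. With normexp the counts of higher and lower genes were 2 and 11, 4 and 13, and 6 and 7, with medians of −0.29, −0.50 and 0.17; of all genes 4.03% and 6.55%, 11.2% and 4.40%, and 7.60% and 21.1% were then called. With no filter on dim probes 7 were higher in PABP1 IP, with a median of −0.75 over 74 genes. The mean of a gene's probes gave 8 higher in GFP IP and a PABP1 IP median of −0.79. Slide 1 alone gave a median of 0.52 between the IPs, and slide 2 alone gave 0.20 there and −0.41 for GFP IP over input.

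With genes under older names added, 17 of 83 were higher in PABP1 IP, with medians of −0.64 there and 0.045 between the IPs; without the other kinesins, the medians were −0.42 for GFP IP and −0.75 for PABP1 IP over input. Both memberships were chosen after seeing the data. In the authors' deposited table the medians were 0.024 for GFP IP over input and 0.73 between the IPs. Leaving out each array in turn, the medians ranged over −0.57 to −0.41 for GFP IP over input, −0.92 to −0.66 for PABP1 IP over input and 0.24 to 0.49 between the IPs, and the count higher in PABP1 IP ranged over 7 to 11, with 7 without input 2.

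Deviations of arrays that share a number correlated at −0.74 to 0.62, positively in the 3 pairs that also share a slide and negatively in the 4 that do not, and those of arrays on one slide at 0.44 to 0.77, so the number was not taken to pair samples. With the replicate number as a block, the counts were 13 and 32, 11 and 36, and 25 and 14, and the PABP1 IP median was −0.74.

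Signs turned for single genes as follows. Median scaling gave 0.44 for Bub3 between the IPs, and 0.19 for Cenpl and 0.027 for Kif20a in GFP IP over input. Quantile normalization gave, between the IPs, 0.73 for Bub3, 0.47 for Aurkc and 0.66 for Kif22, and −0.10 for Birc5 in PABP1 IP. Normexp gave 0.071 between the IPs and −0.19 in PABP1 IP for Kif12. The mean of probes gave −0.25 (GFP IP over input) and −1.17 (PABP1 IP over input) for Anln, −0.16 for Bub3 in PABP1 IP, −0.97 (GFP IP over input) and −0.58 (PABP1 IP over input) for Cenph, and in GFP IP −0.26 for Kif11, 0.50 for Kif13a and 0.071 for Cenpl. Slide 2 alone gave −0.70 for Kif18a between the IPs. The authors' deposited table gave 0.16 for Cenpl and 0.000262 for Kif20a.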
